A study of Bos taurus with 20 samples.

Results

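NR2F2 and EPAS1 are transcription factors, and each was represented by 1 of the 1536 clones of the 18KO array, a spotted cDNA array of bovine endometrium, the lining of the uterus. The clones were chosen by gene symbol, as all those whose single symbol in the array's gene table is NR2F2 (gene ID 281945, clone 18KO-15-H10) or EPAS1 (gene ID 282711, clone 18KO-13-G12); 137 clones of this array carry a single symbol, for 72 genes. Neither symbol occurs on the companion 18KB array (0 clones). The 18KO array was made from a subtracted library enriched for transcripts more abundant in control animals, and 18KB from the opposite library.

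The samples were intercaruncular endometrium of the caudal part of the ipsilateral uterine horn, from Simmental (Deutsches Fleckvieh) heifers on day 18. The 4 pregnant heifers (animals 316, 426, 447 and 448, aged 17 to 20 months) had been inseminated with frozen semen, and an intact conceptus was found and taken out before sampling. The 6 control heifers (animals 330, 404, 427, 434, 440 and 449, aged 18 to 22 months) had been inseminated with sperm-free supernatant from the same bull, carried no conceptus and were on day 18 of the oestrous cycle. All animals of both groups had been synchronised with cloprostenol, a prostaglandin analogue that ends the luteal phase. The pieces were cut from the lamina propria and hold several cell types, so that fewer cells of a type and less RNA per cell cannot be told apart.

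NR2F2, also known as COUP-TFII, is an orphan nuclear receptor. In the uterus of mice it works in the stroma, where progesterone acting through the epithelial signal Indian hedgehog induces it, and it is needed there for embryo attachment and for the conversion of stroma into decidua. EPAS1 encodes an alpha subunit of the hypoxia-inducible factors. Its protein is broken down when oxygen is plentiful and pairs with ARNT when oxygen is scarce; it is prominent in endothelial cells, and the uterine stroma of mice needs it for implantation. An array measures the transcript and not the protein of either factor.

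Both transcripts had higher intensities in pregnant endometrium. NR2F2 rose 2.88-fold, and EPAS1 was 2.73-fold higher with a p that passed 0.05 but not the threshold of 0.01 used for calling. The question was whether the day 18 conceptus goes along with a different level of these factors in the endometrium, and the comparison is pregnant against control throughout.

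The NR2F2 clone gave intensities of 1.76 in pregnant 316, 2.88 in 426, 2.19 in 447 and 1.09 in 448. In controls it gave 0.71 in animal 330, 0.47 in 404, 0.52 in 427, 0.63 in 434, 0.54 in 440 and 1.26 in 449. All controls but 1 thus lay below every pregnant animal, while control 449 lay above pregnant 448, so the groups overlapped, with the pregnant animal higher in 23 of the 24 possible pairs. The mean log2 intensity was 0.90 ± 0.59 (SD, n = 4) in pregnant and -0.62 ± 0.51 (SD, n = 6) in control animals. The difference was 1.52 ± 0.33 (SE) on the log2 scale, with a 95% interval of 0.81 to 2.24, or 1.75- to 4.73-fold. The limma adjusted p over all 1471 genes and unnamed clones of the array was 0.00962, and the two-sided exact permutation p over the 210 splits of the animals was 0.00952, where the smallest possible is 0.00476.

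The EPAS1 clone gave 10.96 in pregnant 316, 10.98 in 426, 7.29 in 447 and 7.78 in 448. In controls it gave 2.79 in animal 330, 4.60 in 404, 1.49 in 427, 6.06 in 434, 2.46 in 440 and 4.80 in 449. Every pregnant animal lay above every control, in 24 of 24 pairs, and the lowest pregnant value was 1.20 times the highest control value. Such a gap with pregnant animals on top was found in 63 of the 1471 genes and unnamed clones, or 4.28%. Pregnant animals lay close together, within 1.51-fold, whereas controls spread over 4.07-fold. The mean log2 intensity was 3.18 ± 0.32 (SD, n = 4) in pregnant and 1.74 ± 0.75 (SD, n = 6) in control animals. The difference was 1.45 ± 0.37 (SE), with a 95% interval of 0.66 to 2.24, a limma adjusted p of 0.0212 and a two-sided exact permutation p of 0.0143.

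**Figure D1:**
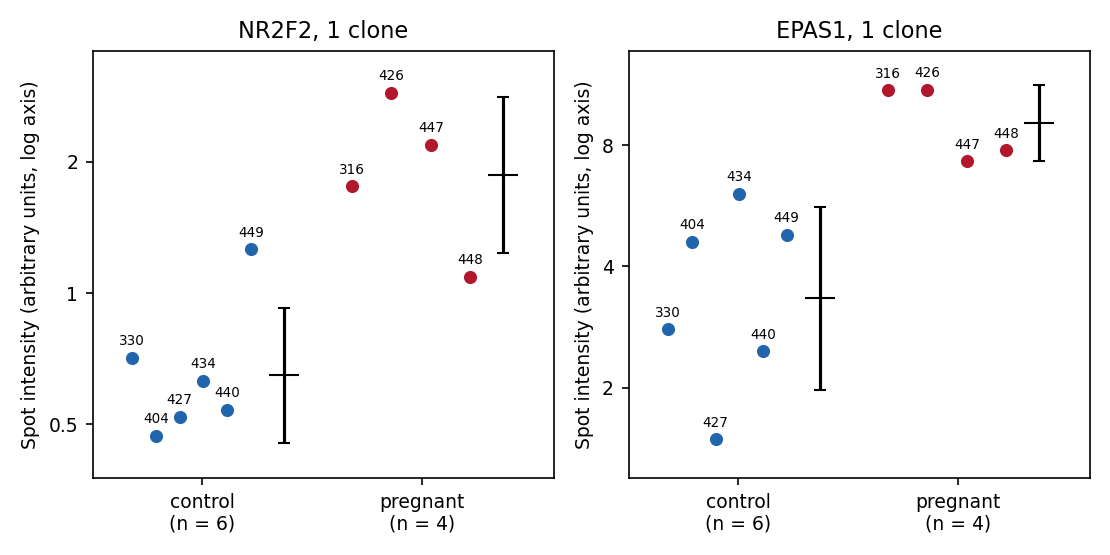
Spot intensity on a log axis of the NR2F2 clone (left) and the EPAS1 clone (right) in each heifer, labelled by animal number, with the geometric mean and 1 SD of the log2 values as bars beside the 6 control (blue) and 4 pregnant (red) animals. For NR2F2, control 449 (1.26) lies above pregnant 448 (1.09), while for EPAS1 the 4 pregnant animals (7.29 to 10.98) lie above all controls (1.49 to 6.06).

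Increases of this size were uncommon on an array built from transcripts of the other direction. With the call set at 2-fold or more and an adjusted p below 0.01, 13 of the 1471 genes and unnamed clones were higher in pregnant animals (0.884%) and 57 were lower (3.87%). Among the 72 named genes 3 were called higher (4.17%), which were NR2F2, PENK, a precursor of enkephalins (9.21-fold higher), and the complement inhibitor SERPING1 (5.53-fold higher). Another 21 named genes were called lower (29.2%). The fold change of NR2F2 was exceeded by 27 of the 1536 clones and that of EPAS1 by 30. With p-values adjusted over the 72 named genes alone, EPAS1 was called too (limma adjusted p = 0.00349), as 1 of 7 genes in that direction (9.72%). At 1.5-fold or more and an adjusted p below 0.05 both were called, along with 3.67% of all genes and unnamed clones in that direction. The clones have names chiefly because the authors sequenced those that differed between these same animals, so these p-values are not independent evidence.

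**Figure D2:**
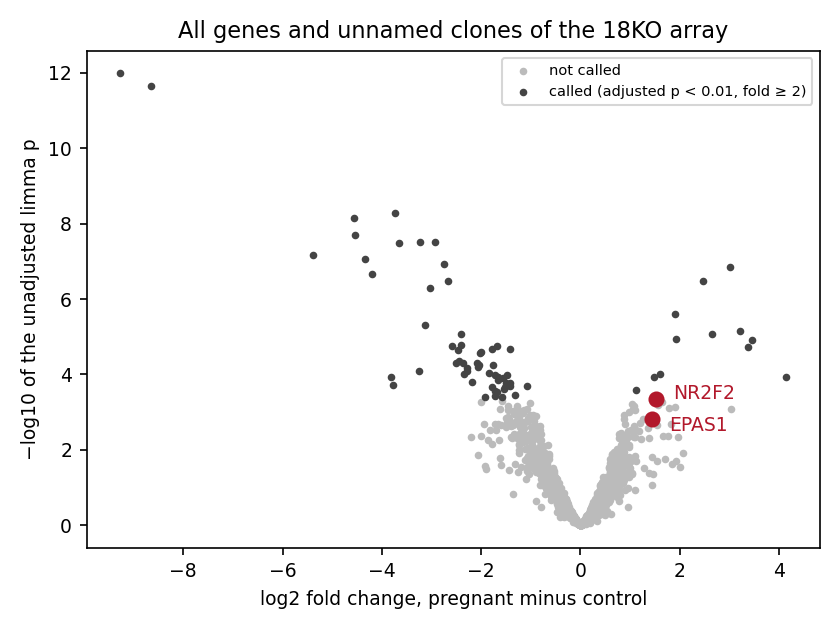
Each point is 1 of the 1471 named genes and unnamed clones of the 18KO array, with the log2 fold change (pregnant minus control) on the horizontal and the negative log10 of the unadjusted limma p on the vertical axis; dark points were called. NR2F2 (1.52) is the called one of the pair and EPAS1 (1.45) lies just below it, on the sparsely filled side with 13 called points against 57 on the left.

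The NR2F2 call stood close to the threshold. It was lost in 8 of the 10 analyses that left out 1 animal each: without pregnant 316 (1.55), whose array was hybridised later than the others, 426 (1.32) or 447 (1.45), and without control 330 (1.55), 404 (1.43), 427 (1.46), 434 (1.52) or 440 (1.47), with limma adjusted p-values of 0.0147 to 0.0423. The call was kept without pregnant 448 (1.78) or control 449 (1.72). EPAS1 remained uncalled in all 10, at 1.22 to 1.62.

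Column scaling mattered for both genes. Medians of the 18KO columns ran from 1.67 to 2.36 in pregnant animals and from 2.02 to 3.90 in controls, with control 449 the highest. As a ratio to the median of its own column, NR2F2 was 0.655 to 1.32 in pregnant and 0.174 to 0.323 in control animals, so the overlap seen in the deposited values was gone. For EPAS1 these ratios were 3.35 to 5.05 and 0.736 to 2.21. How many of all genes and unnamed clones separate after this scaling was not counted. The same scaling raised the clones called higher from 18 to 82 of 1536, so separation is not particular to these 2 genes. With equal column medians the log2 differences were 1.86 for NR2F2 and 1.78 for EPAS1, and both were called (limma adjusted p = 0.000207 and 0.00079). That scaling moved the median log2 fold change of the array from -0.02 to 0.31, by the same amount as every single gene. With 1 factor per animal from both arrays they were 1.27 and 1.20, against a median of -0.27, and the groups then overlapped in 1 of 24 pairs for each gene.

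**Figure D3:**
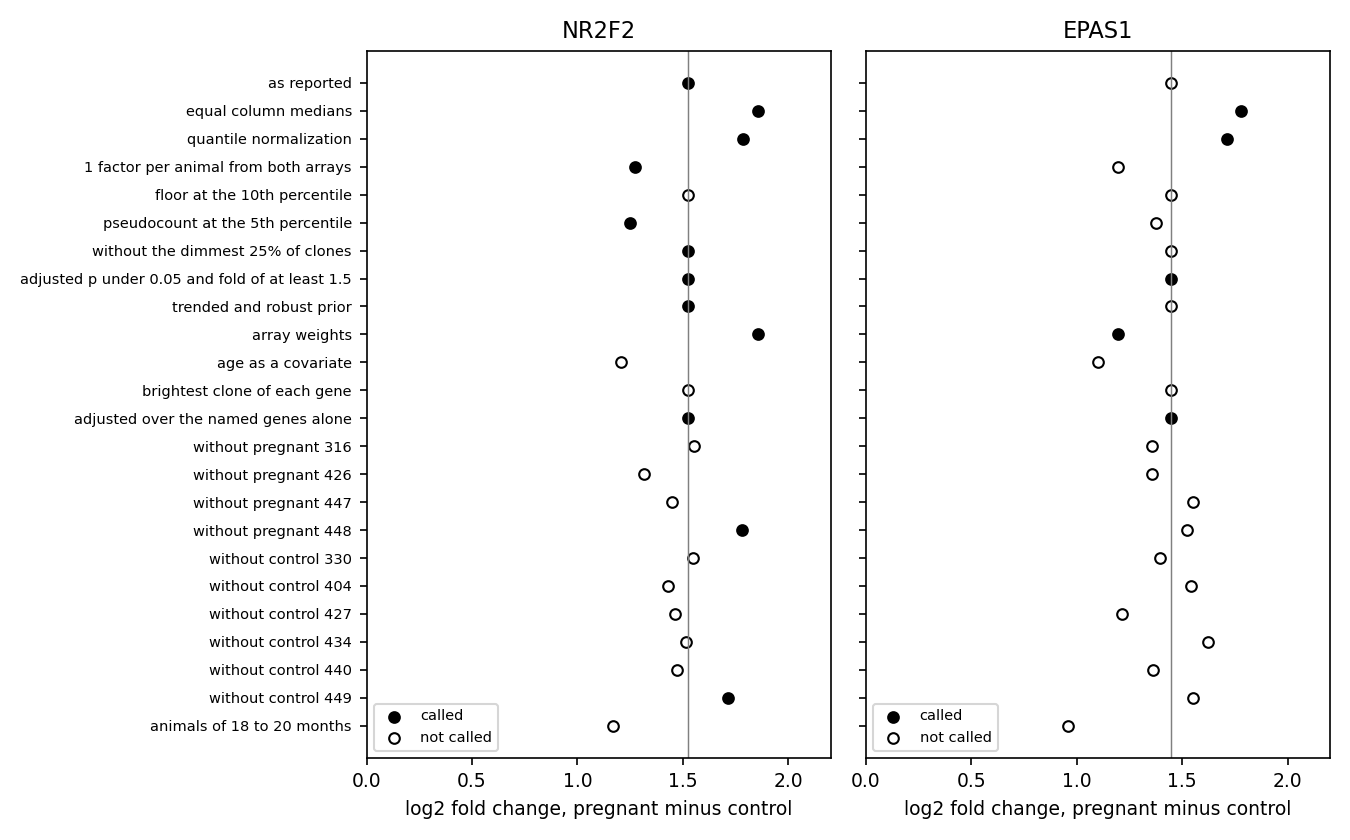
Log2 fold change of NR2F2 (left) and EPAS1 (right) as reported and under each other setting or left-out animal, 1 row each, filled where the gene was called and open where it was not; the grey line marks the value as reported. All values lie above 0, from 1.17 to 1.86 for NR2F2 and from 0.96 to 1.78 for EPAS1, while the calls change.

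Age differed between the groups, and some of the extreme values of both genes lay in the youngest or oldest animals. Pregnant animals were 20 (316), 17 (426), 19 (447) and 20 (448) months old, and controls 20 (330), 20 (404), 22 (427), 19 (434), 22 (440) and 18 (449) months. The youngest pregnant animal, 426, had the highest NR2F2 intensity of its group (2.88) and the youngest control, 449, the highest of the controls (1.26). Both controls of 22 months had the lowest EPAS1 intensities (1.49 and 2.46). Among pregnant animals NR2F2 was lower at each higher age, with 2.88 at 17 months, 2.19 at 19 months and 1.76 and 1.09 at 20 months. In controls NR2F2 was 1.26 at 18 months, 0.63 at 19, 0.71 and 0.47 at 20, and 0.52 and 0.54 at 22. Among pregnant animals EPAS1 did not follow age, with 10.98 at 17 months, 7.29 at 19 months and 10.96 and 7.78 at 20 months. Among animals of the same age, the pregnant ones were higher for both genes: at 20 months NR2F2 was 1.76 and 1.09 in pregnant against 0.71 and 0.47 in control animals, and EPAS1 was 10.96 and 7.78 against 2.79 and 4.60. At 19 months, with 1 animal a group, NR2F2 was 2.19 against 0.63 and EPAS1 7.29 against 6.06. With age as a covariate the log2 differences were 1.20 for NR2F2 (limma adjusted p = 0.013) and 1.10 for EPAS1 (0.0303), and the NR2F2 call was lost. In the 3 pregnant and 4 control animals of 18 to 20 months, a choice made after seeing the data, they were 1.17 (limma adjusted p = 0.0934) and 0.96 (0.106).

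**Figure D4:**
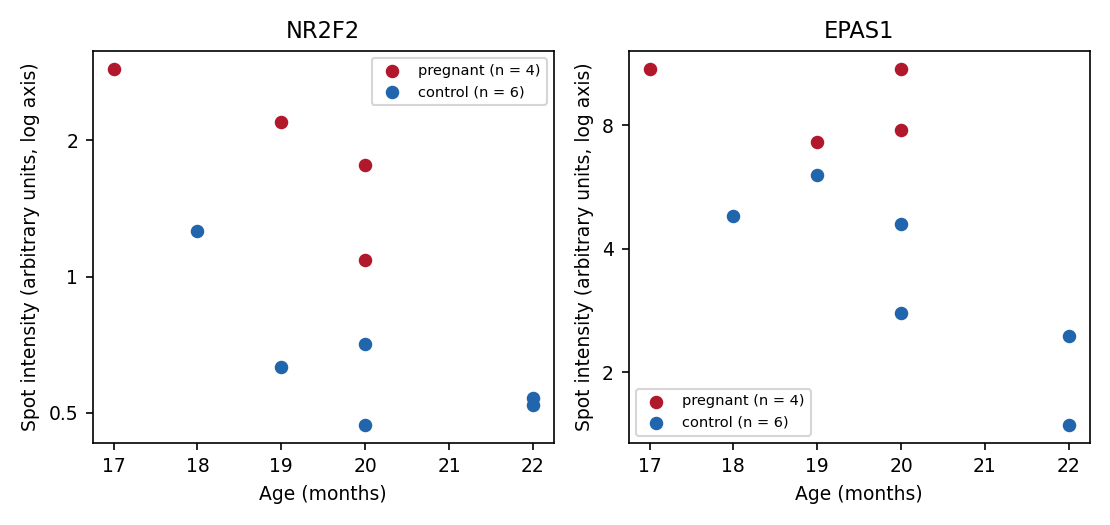
Spot intensity on a log axis of NR2F2 (left) and EPAS1 (right) against age in months for the 4 pregnant (red) and 6 control (blue) heifers. At 19 and 20 months, the ages found in both groups, the pregnant points lie above the control points, and for EPAS1 both controls of 22 months are the lowest (1.49 and 2.46).

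The amounts by which both factors differed were compared within each animal, where a common factor for the whole column drops out. The log2 intensity of NR2F2 minus that of EPAS1 was -2.64 in pregnant 316, -1.93 in 426, -1.73 in 447 and -2.84 in 448. In controls it lay between -3.29 (404) and -1.52 (427), with the pregnant values inside that range. These values compare animals, and not the abundance of one transcript with the other, since the clones differ in length and labelling. The means were -2.28 ± 0.53 (SD, n = 4) and -2.36 ± 0.74 (SD, n = 6), which leaves 0.08 between the changes of the 2 genes (two-sided exact permutation p = 0.876). The 95% interval of that difference, from the same test, ran from -1 to 1.16, so a difference of about 2-fold either way could not be detected with these animals.

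Other named genes of the array with a like pattern were found by the root-mean-square difference between log2 profiles over the 10 animals, each profile centred on its own mean. For NR2F2 the closest of 71 genes were CD81, a tetraspanin (0.47), SERPING1 (0.59), TXNIP, an inhibitor of thioredoxin (0.60), EPAS1 (0.60) and TNMD, tenomodulin (0.87), against a median of 1.498 over all 71. For EPAS1 they were TXNIP (0.33), CD81 (0.51), TNMD (0.54), NR2F2 (0.60) and CLDN4, a tight junction protein of epithelia (0.63), against a median of 1.51. Each gene thus held rank 4 of 71 in the other's order. TXNIP and CD81, near both, had log2 fold changes of 1.53 ± 0.41 and 1.35 ± 0.37 and were not called (limma adjusted p = 0.0259 and 0.0283). TNMD had 0.80 ± 0.38 (limma adjusted p = 0.182). Most named genes were lower in pregnant animals, so that any gene in the other direction comes out as alike by this measure.

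Within the controls TXNIP ranked the animals in the order of EPAS1, from 427 (lowest) through 440, 330, 404 and 449 to 434 (highest), and CLDN4 in nearly that order. CLDN4 had intensities of 1.75 in animal 427, 2.62 in 440, 6.53 in 330, 11.94 in 449, 12.26 in 404 and 19.74 in 434, so that 404 and 449 change places. Both genes were picked as alike to EPAS1 over these same animals, so a shared order is no separate observation. How many other genes and clones share it was not counted. NR2F2 had another order, with 404 lowest and 449 highest. In pregnant animals CLDN4 was 18.90 to 32.62.

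**Figure D5:**
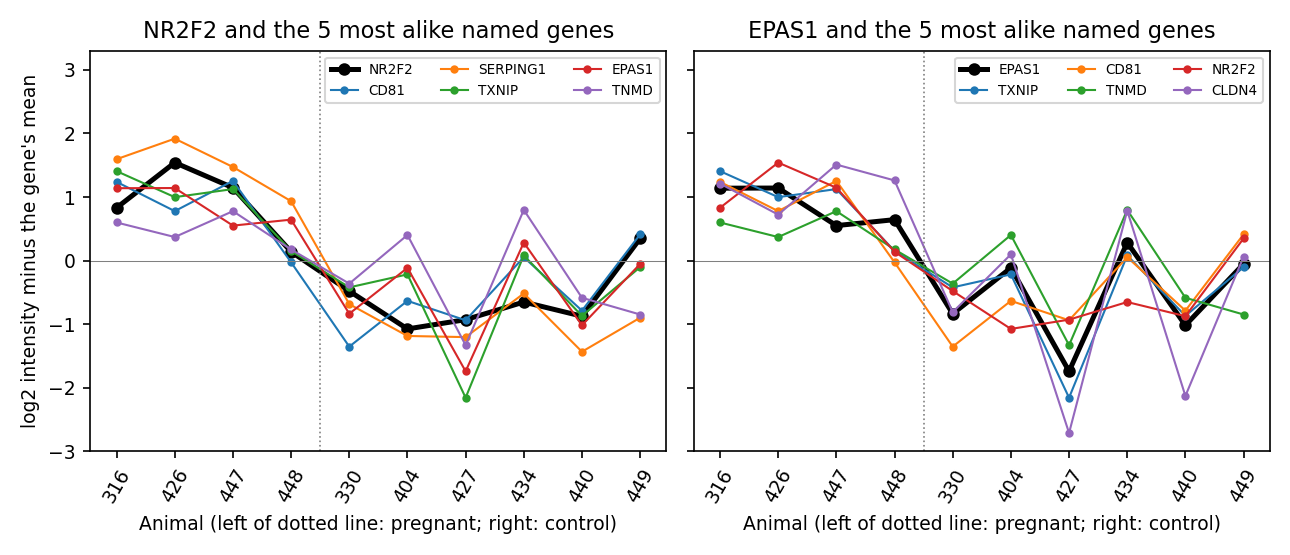
Centred log2 intensity over the 10 animals, pregnant left of the dotted line, of NR2F2 (left, black) and EPAS1 (right, black) with the 5 named genes most alike to each. TXNIP runs closest to EPAS1 (root-mean-square difference 0.33), with the same dip in control 427. Among controls NR2F2 is lowest in 404 (intensity 0.47), next lowest in 427 (0.52) and highest in 449.

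Few genes of the pathways around these factors have a name on either array. None (0) of 12 components of hypoxia signalling was named. Of 50 hypoxia-inducible targets, 1 was named on the 18KO array and 2 on 18KB, and none was called (0 higher, 0 lower). STC1, the hormone stanniocalcin, had a log2 fold change of -1.04 ± 0.47 (limma adjusted p = 0.163). ADM, the vasodilator adrenomedullin, had -0.40 ± 0.36 (0.425), and LDHA, a glycolytic enzyme, -0.99 ± 0.31 (0.0287). Their intensities overlapped between the groups, from 1.17 to 2.07 in pregnant and 1.22 to 8.12 in control animals for STC1, from 1.89 to 3.23 and 1.97 to 8.59 for ADM, and from 0.33 to 0.70 and 0.51 to 1.46 for LDHA. The values of all 3 targets lay on the other side of 0 from EPAS1, and a link to EPAS1 was not tested. None was called, though the limma adjusted p of LDHA, like that of EPAS1, was below 0.05. The median log2 fold change over all genes and unnamed clones was -0.02 on the 18KO and 0.38 on the 18KB array.

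Of 30 genes of the progesterone, hedgehog and NR2F2 axis, 2 were named, both on 18KO, and 1 fell, where 3.87% of all genes and unnamed clones and 29.2% of named genes were called lower. OXTR, the oxytocin receptor, fell by 3.65 ± 0.33 on the log2 scale (limma adjusted p = 5.91e-06), with intensities of 0.0954 to 0.155 in pregnant and 0.777 to 2.31 in control animals. Its pregnant values lay below 0.37, the 10th percentile of intensities on 18KO, so the size of the fall may depend on how low intensities were treated. PTGS2, the inducible cyclooxygenase of prostaglandin synthesis, had -0.47 ± 0.60 (limma adjusted p = 0.666). Neither the progesterone receptor nor BMP2 or WNT4, which act with NR2F2 in the stroma of mice, was among the named genes.

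Of 54 other regulators of transcription, 2 were named on each array. On 18KO, SOX4, a developmental transcription factor, had -1.46 ± 0.38 (limma adjusted p = 0.0245) and BTG2, an antiproliferative cofactor, -0.41 ± 0.58 (0.707); neither was called. SOX4 lay at 0.43 to 0.50 in pregnant and 0.67 to 3.52 in control animals. On 18KB both rose, where 15.6% of all genes and unnamed clones were called higher: NUPR1, a stress-induced nuclear protein (2.89 ± 0.21), and IRF9, part of the factor that interferons activate (1.64 ± 0.31). The values of NR2F2 and EPAS1 were opposite in sign to those of SOX4 and BTG2, though the SE of BTG2 exceeded its change.

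Markers of cell types moved with pregnancy as well. Of 12 stroma markers 5 were named on 18KO, and 3 of the 5 fell, where 3.87% of all genes and unnamed clones and 29.2% of the named genes of that array were called lower. These were the collagens COL1A1 (-2.28 ± 0.41), COL3A1 (-1.73 ± 0.37) and COL6A3 (-2.44 ± 0.42). COL1A2 (-1.73 ± 0.46) and FBLN1, a matrix protein (-1.06 ± 0.38), were not called, and the median of the 5 was -1.73. Their summed intensity was 68.4 to 273 in pregnant and 328 to 1084 in control animals. On 18KB all 3 named stroma markers fell, where 0.634% of all genes and unnamed clones were lower. They were COL1A1, COL1A2 and COL3A1, which are also among the 5 of 18KO and were measured in the same animals. Relative to the mean of the 5 markers of 18KO within an animal, NR2F2 was higher in the pregnant animal of all 24 pairs. Since the markers were themselves lower in pregnant animals, this ratio shows unequal change and not which gene changed. A gene that did not change would also come out higher by it. How many of all genes and unnamed clones do so in every pair was not counted. The markers are also named chiefly because their clones differed in these animals, so the ratio is no independent evidence.

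Both named smooth muscle markers of 8 fell on 18KO (against 3.87% of all genes and unnamed clones and 29.2% of named genes), ACTA2 (-1.41 ± 0.28) and MYLK (-1.58 ± 0.34), with summed intensities of 4.81 to 9.33 and 14.7 to 33.3. The single epithelial marker of 11, CLDN4, had 1.96 ± 0.58 (limma adjusted p = 0.0393). No marker of endothelium (0 of 15), leukocytes (0 of 11) or red cells (0 of 4) was named on either array. The part that these cell types have in the values of NR2F2 and EPAS1 was not tested.

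Trophoblast transcripts, from the outer layer of the conceptus, were measured on 18KB in the same RNAs. Of 10 markers 3 were named there and 2 rose, on an array where 15.6% of all genes and unnamed clones were called higher: IFNT2 (2.16 ± 0.52) and TKDP1 (3.14 ± 0.78), while TKDP4 (2.31 ± 0.74) was not called. Their summed intensity reached 1.44 in pregnant 316, 4.30 in pregnant 447, 8.05 in pregnant 426 and 41.7 in pregnant 448. Controls had 0.955 to 1.79. Pregnant 448, with the largest sum, had the lowest NR2F2 intensity of the pregnant animals (1.09), whereas pregnant 426, with the next largest sum, had the highest NR2F2 (2.88) and EPAS1 (10.98). Pregnant 316 lay inside the control range for these transcripts only through control 427 (1.79), as the other controls had at most 1.16. It had 1.76 for NR2F2 and 10.96 for EPAS1, both above every control. A part of conceptus RNA in the values of both genes was not tested.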

How the data were processed

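The 20 samples are 10 heifers, each measured on the 18KB and the 18KO array with radioactively labelled cDNA, per the labels' protocols. The authors deposited linear spot intensities, from 0 to 632.83 on 18KO; their background correction and column scaling are not given in the sources used here. Per the labels, pregnant 316 was hybridised again to 18KO at a later time beside 2 other samples, and its values were set by ratios to theirs. The number of animals limits the precision.

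Values below 0.01 were set to 0.01 before the log2. NR2F2 and EPAS1 have 1 clone each, whose gene identifiers carry the same symbols in RefSeq (assembly ARS-UCD2.0). Clones were named through the platform's annotation, which may be outdated: 137 clones of 18KO carry 1 symbol, 4 several, and 1399 have no single name here. No coordinates or sequences are given.

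Named genes (mean of their clones) and all clones without a single name, 1471 in all on 18KO, were fitted in limma 3.58.1 (lmFit, eBayes; R 4.3.3, statmod 1.5.0) with Benjamini-Hochberg adjustment over that table, and called at 2-fold or more with an adjusted p below 0.01, the thresholds that the series text gives for SAM, which was not run. The fit was tested on simulated data. Single values were also tested by two-sided exact permutation over animals. The members, lists and markers were chosen with earlier results of these data known. Genes named are the members and, for each, the 5 named genes of least root-mean-square difference. From each list every measured gene up to 4 is named, otherwise the 4 of smallest p. PENK, FBLN1, ACTB and SERPINA14 were added after their values were seen. Alternatives were other scalings, floors, filters, thresholds, priors, array weights, age, the brightest clone, adjustment over named genes, each animal left out and an age window. The number of other sample columns in the files was 0, no column repeated another (0 pairs), and log2 columns of a group correlated at 0.94 to 0.98. Plots used Python 3.11.15 and matplotlib 3.10.9.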

Additional observations from a re-analysis of the deposited data

Results flagged for a closer look

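In 18 groups of values, 4 had an animal whose gap to its nearest neighbour was large for the range of its group. For normally distributed values chance gives this in about 1 of 20 groups. All 4 were linear intensities or sums, which need not be normal, and the 18 groups share animals and genes, so that rate is only a rough guide. The NR2F2 intensity of control 449 (1.26) stood above the other 5 controls (0.47 to 0.71), which holds on the linear scale and not on the log2 scale used for the tests. The same animal had the highest summed intensity of the smooth muscle markers (33.3, where the other controls had 14.7 to 19.4), and its column had the highest median (3.90). The summed trophoblast markers on the 18KB array were high in pregnant 448 (41.7, against 1.44 to 8.05 in the other pregnant animals) and in control 427 (1.79, where the other controls had 0.955 to 1.16). Control 427 also had the lowest EPAS1 intensity (1.49).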

How the results depend on the processing

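NR2F2 and EPAS1 stayed higher in pregnant animals under all 13 processing alternatives and without any 1 animal. NR2F2 lost its call with a floor at the 10th percentile (1.52, limma adjusted p = 0.0219), with the brightest clone of each gene (1.52, limma adjusted p = 0.0101), with age as a covariate (1.20) and in animals of 18 to 20 months (1.17); without 1 animal it ranged from 1.32 to 1.78. EPAS1 gained a call with equal column medians (1.78), quantile normalization (1.71), array weights (1.19), the lenient thresholds (1.45) and adjustment over named genes alone (1.45); without 1 animal it ranged from 1.22 to 1.62. The floor lies at 0.37, below all values of both genes, so there the change in adjusted p comes from the other clones. In every control, however, NR2F2 lay far below the median of its column, and in most controls not far above that floor. Since the background correction is not known, its fold change may depend on how low intensities were treated. With a pseudocount at the 5th percentile its log2 fold change was smaller, though it stayed called. The 115 clones called (18 higher, 97 lower) became 175 with equal column medians (82 higher, 93 lower), 157 after quantile normalization (53 higher, 104 lower), 247 with 1 factor per animal (14 higher, 233 lower), 69 with the 10th percentile floor, 269 at the lenient thresholds and 52 in animals of 18 to 20 months, and 58 to 114 without 1 animal; the cause was not tested, though fewer animals enter the last 2. The difference between the changes of the 2 genes had the opposite sign with a pseudocount at the 5th percentile (-0.13) and ranged from -0.11 to 0.26 without 1 animal, with p of 0.556 to 0.964 by exact permutation. No paired analysis was possible because pregnant and control animals share no number and both genes are on 1 array.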

Other observations

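Values relative to another gene of the same animal do not depend on the scaling of columns, and were looked at after seeing the data. NR2F2 minus the mean of the 5 stroma markers, on the log2 scale, was -3.40 ± 0.48 (SD, n = 4) in pregnant and -6.77 ± 0.50 (SD, n = 6) in control animals, a difference of 3.37 that was seen in 24 of 24 pairs. For EPAS1 the same difference was 3.29, again in 24 of 24 pairs. Relative to ACTB, beta actin, represented by 2 clones, the differences were 2.58 for NR2F2 and 2.51 for EPAS1, in 24 of 24 pairs each. ACTB itself had a log2 fold change of -1.06 ± 0.27 (limma adjusted p = 0.0236), and the stroma markers were lower in pregnant animals, so these ratios show unequal change and not which gene changed. A gene that did not change would also come out higher in pregnant animals by these ratios. How many of all genes and unnamed clones separate in this way was not counted. Each of the 4 differences had a two-sided exact permutation p of 0.00476 (0.00476 after Benjamini-Hochberg adjustment over 4), the smallest that the 210 splits can give; the stroma markers and ACTB are named chiefly because their clones differed in these animals, so this is no independent evidence.

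SERPINA14, a serpin secreted by the uterine glands, was measured in every animal, at 2.61 to 8.53 in pregnant and 1.48 to 85.5 in control animals (-1.37 ± 0.88, limma adjusted p = 0.337).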
